A study of Mus musculus with 12 samples.

Results

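Bone morphogenetic protein (BMP) signaling was followed through 10 genes in Ocy454 cells, a mouse osteocyte-like line: the ligand gene Bmp4, the extracellular modulators Bmper and Grem1, the receptors Bmpr1a and Bmpr2, the response genes Id1, Id2 and Id3, and the inhibitory SMADs Smad6 and Smad7. They were named by symbol and had been listed with earlier results of these data known. The deposited transcript values were summed per gene for 35214 genes, and 9 of the 10 passed the filter on low counts. Only Grem1 did not.

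The study asked what fibroblast growth factor 2 (FGF2) does to the transcriptome of these cells and how that depends on FGF receptor activity. The cells share 1 line and 1 differentiation course: they were cultured to confluence at a permissive temperature, warmed to differentiate for 5 days, and lysed on day 7. The 4 groups of 3 libraries were DMSO (the vehicle, no FGF2), DMSO+FGF2 (vehicle, then FGF2 at 2 ng/mL), BGJ398 (the pan-FGFR inhibitor at 200 nM, no FGF2) and BGJ398+FGF2 (both agents at those doses). Inhibitor or vehicle was given 1 h before FGF2 or its control, which stayed on for 48 h. The labels call each condition a triplicate and do not say whether the 3 libraries came from separate cultures, and the p-values here speak only of the spread among those libraries, possibly a technical one.

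BMP ligands are secreted dimers that bring together type I receptors, such as the product of Bmpr1a, and type II receptors, such as that of Bmpr2. The type II kinase activates the type I kinase, which phosphorylates SMAD1, SMAD5 and SMAD9, and these enter the nucleus with SMAD4 and switch on target genes. Id1, Id2 and Id3 are among the best-known early targets. They encode helix-loop-helix proteins without a DNA-binding region that tie up basic helix-loop-helix transcription factors. Smad6 and Smad7 are targets as well, and their products damp the signal. BMP ligands drive osteoblast differentiation in bone.

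Polyadenylated RNA was sequenced, and 18951710 to 27716975 reads per library were assigned to transcripts. Levels are given as CPM, reads scaled to library size and composition, and between genes as TPM, which corrects for transcript length. In the library-to-library deviations within groups, BGJ398 replicate 1, DMSO+FGF2 replicate 2 and BGJ398+FGF2 replicate 2 lay together, at −10.8, −10.0 and −18.4 on the axis that held 31.4% of the deviation, while the other 9 lay between −3.05 and 10.7. Calls on named genes that change without them are given both ways. These libraries were picked for their deviation, so leaving them out narrows the spread by design and leaves fewer libraries in their groups. BGJ398 without FGF2 then called 730 of all genes instead of 41. Calls gained that way are no separate support. Of 12 osteoblast and osteocyte markers 6 averaged over 1 TPM. Sost and Mepe, which mark mature osteocytes, had 0 reads, Dmp1 had 26 and Fgf23 had 6 over the 12 libraries. Nearly all of the summed level of these markers was the collagen gene Col1a1 (means of 2623 TPM in DMSO and 1547 TPM in DMSO+FGF2). The summed level was 2685 to 2812 TPM in DMSO and 1576 to 1780 in DMSO+FGF2. It was 2851 to 3031 TPM in BGJ398 and 2731 to 3224 in BGJ398+FGF2. With FGF2 in DMSO 6 of the 8 tested markers fell and 1 rose, where 5.82% of all genes were called lower and 7.57% higher. The marker that rose was Pdpn, by 0.52 ± 0.08 on the log2 scale (SE). Endothelial markers summed to 0 to 0.489 TPM in any library. Macrophage markers summed to 9.72 to 10.8 TPM in DMSO+FGF2 and 2.52 to 7.12 in the other groups, and nearly all of this was Cd68, a lysosomal glycoprotein gene. Cd68 rose with FGF2 in DMSO by 1.94 ± 0.22 on the log2 scale (SE, adjusted p = 6.59e-05), while Csf1r had −0.75 ± 0.68 (adjusted p = 0.539). Adgre1, Ptprc and Itgam, which define macrophages and leukocytes, had 0, 2 and 5 reads in all. Of 3 tested chondrocyte markers, Sox9 rose by 0.84 ± 0.11 and Matn3 fell by 1.80 ± 0.16 in the same comparison. The part of these markers in the results below was not tested.

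Promoter sequences are shown first for 4 genes: Id2, Id3 and Smad6, which FGF2 lowered together, and Bmper, which it raised. Bmp4 and Id1 fell as well and are not shown. Windows from RefSeq tables of build GRCm38.p6 were used for 8 of the 10 genes, among them Bmp4 but not Id1 or Smad7. For the listed genes, entries on a single chromosome were skipped, so this is no count of what the tables held. The background shares below kept that chromosome. Each window runs from 250 bases before the annotated start to 25 bases from it on, 275 bases in all, along the strand of the gene. The windows are chr12:25096068-25096342 on the minus strand for Id2, chr4:136143572-136143846 on the plus strand for Id3, chr9:64022035-64022309 on the minus strand for Smad6 and chr9:23222826-23223100 on the plus strand for Bmper. Capitals mark letters known from SMAD binding: GGCGCC, GTCTAGAC, and CAGAC or its reverse complement GTCTG.
Id2: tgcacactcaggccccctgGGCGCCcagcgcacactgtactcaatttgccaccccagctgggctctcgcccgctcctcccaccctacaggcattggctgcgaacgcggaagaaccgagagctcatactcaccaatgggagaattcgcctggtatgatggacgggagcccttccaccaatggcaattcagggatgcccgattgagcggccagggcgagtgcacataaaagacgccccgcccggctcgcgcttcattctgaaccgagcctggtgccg
Id3: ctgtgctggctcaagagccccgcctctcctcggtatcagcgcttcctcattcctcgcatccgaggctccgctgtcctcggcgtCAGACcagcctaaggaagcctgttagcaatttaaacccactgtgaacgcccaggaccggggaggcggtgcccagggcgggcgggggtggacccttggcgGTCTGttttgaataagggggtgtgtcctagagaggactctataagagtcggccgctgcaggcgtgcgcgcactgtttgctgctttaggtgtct
Smad6: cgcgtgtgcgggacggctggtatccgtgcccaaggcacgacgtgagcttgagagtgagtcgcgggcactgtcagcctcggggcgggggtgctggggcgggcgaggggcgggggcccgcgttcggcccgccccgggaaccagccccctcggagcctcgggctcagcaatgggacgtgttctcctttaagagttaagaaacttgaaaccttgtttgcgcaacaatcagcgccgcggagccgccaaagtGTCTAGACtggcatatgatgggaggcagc
Bmper: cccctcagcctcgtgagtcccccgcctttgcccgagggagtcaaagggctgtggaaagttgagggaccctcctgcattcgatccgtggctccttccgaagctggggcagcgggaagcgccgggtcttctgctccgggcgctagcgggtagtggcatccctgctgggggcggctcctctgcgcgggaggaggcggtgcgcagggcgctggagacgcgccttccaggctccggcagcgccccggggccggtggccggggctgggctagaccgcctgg

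Both strands were searched, and no match overlapped another. In Id2 the GGCGCC begins 231 bases before the start. In Id3 a CAGAC begins 167 bases before it and a GTCTG 68 bases before it. In Smad6 the palindrome GTCTAGAC begins 4 bases before the start and spans it. The Bmper window held none of these letters, and neither did that of Bmp4, which FGF2 lowered. GGCGCC was also found in the windows of Grem1, Bmpr1a and Bmpr2, and CAGAC in that of Grem1. Bmpr1a and Bmpr2 were not called with FGF2, and Grem1 was not tested, so the matches did not follow the calls. Over 32851 promoter windows of the same length, 10.7% held GGCGCC, 46.1% held CAGAC or GTCTG and 0.192% held GTCTAGAC. The bases G and C made up a median of 52.4% of all these windows, but 61.45% to 78.18% of the 8 windows here. The shares were not adjusted for that, and GGCGCC is made of G and C only. The CCAAT box (CCAAT, 35.8% of windows) occurred 3 times in Id2 and once each in Grem1 and Bmpr1a, and TATAAA (12.99% of windows) in none of the 8. A match describes the letters and is no measured binding site.

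FGF2 in DMSO lowered 5 of the 9 tested genes and raised 1. Id3, Id2, Id1, Smad6 and Bmp4 fell, Bmper rose, and Smad7, Bmpr1a and Bmpr2 did not pass the test (edgeR's quasi-likelihood test, Benjamini-Hochberg adjusted p under 0.05 over 12542 genes). Over all genes tested, 5.82% were called lower and 7.57% higher in this comparison. The median log2 fold change was −0.28 over the 9 genes and −0.00 over all genes. Under BGJ398, 0 of the 9 passed the test for FGF2, as did 0 of all 12542 genes, which does not show that they were unchanged. The values for each gene follow by role, with the CPM of libraries 1, 2 and 3 in each group. RNA from a whole culture cannot tell fewer expressing cells from less RNA per cell.

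**Figure D1:**
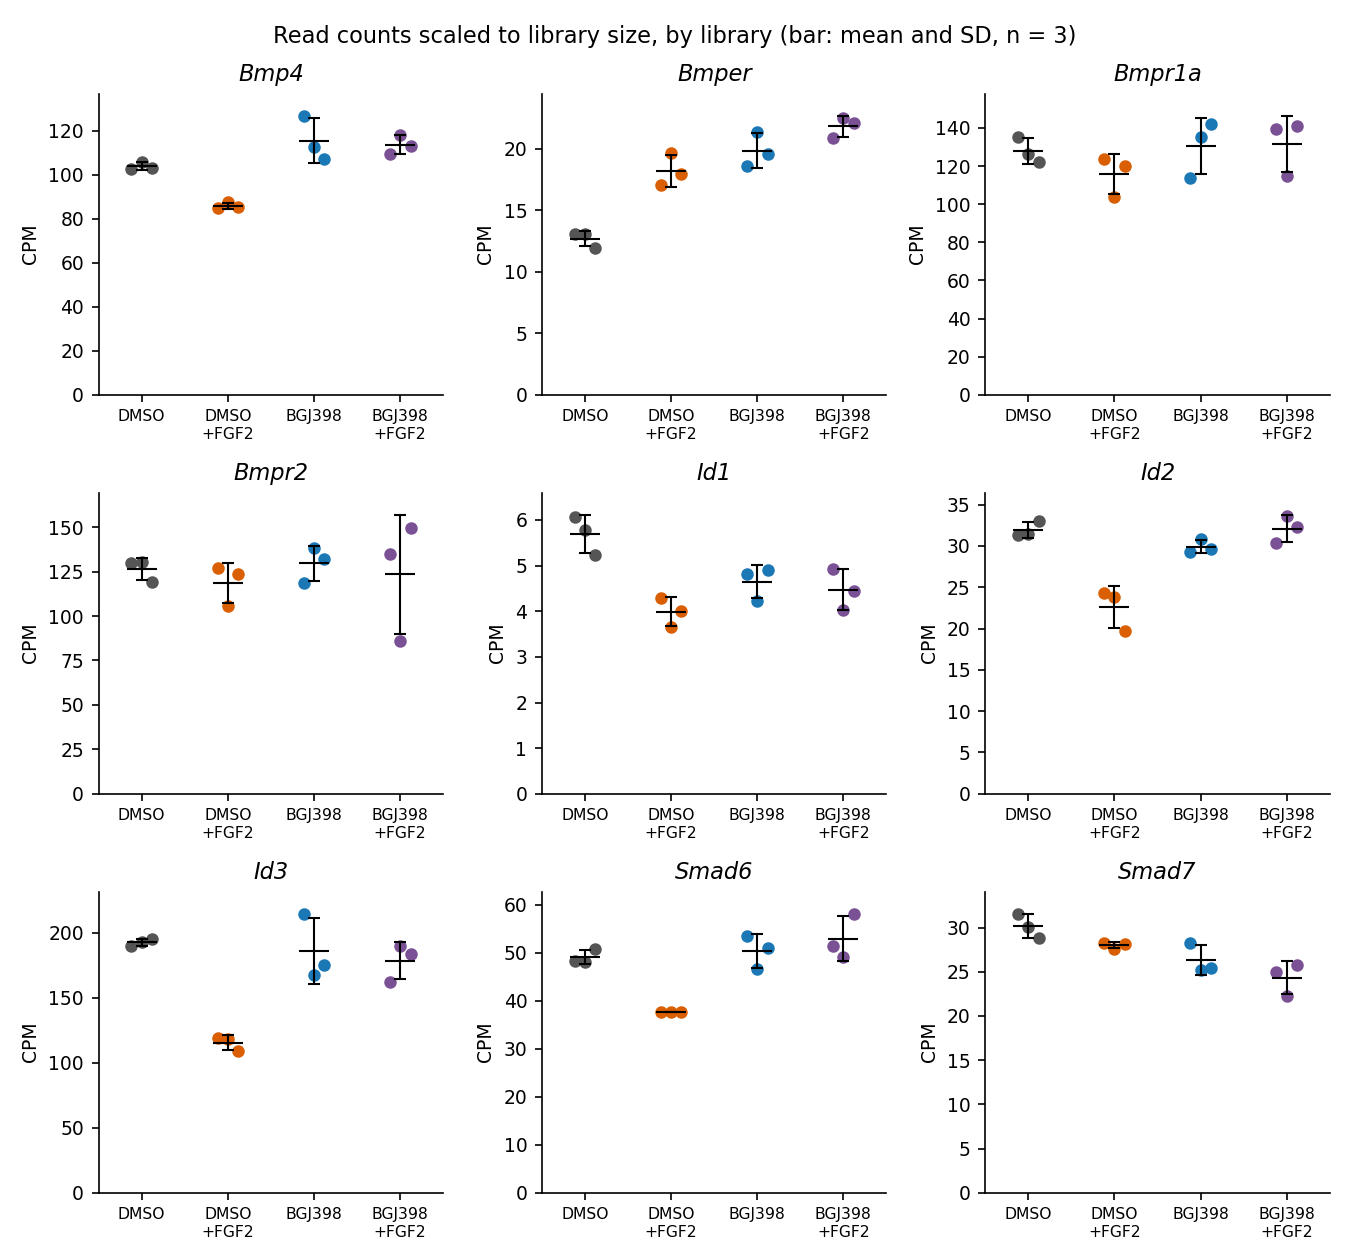
Read counts scaled to library size (CPM, vertical axis from 0) of the 9 tested genes in each of the 12 libraries, with 1 point per library in replicate order and the mean and SD (n = 3) as bars. The 3 DMSO+FGF2 points lie below all 9 others for Id2, Id3, Smad6 and Bmp4, while for Bmper the 3 DMSO points are the lowest.

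Bmp4 (ENSMUSG00000021835) was the only one of the ligand genes listed that averaged over 1 TPM. Its libraries had 103, 106 and 103 CPM in DMSO and 84.7, 87.5 and 85.1 CPM in DMSO+FGF2. They had 127, 112 and 107 CPM in BGJ398 and 109, 118 and 113 CPM in BGJ398+FGF2. The DMSO+FGF2 libraries lay below every other library, and the 2 inhibitor groups overlapped. FGF2 lowered Bmp4 by −0.28 ± 0.06 on the log2 scale (SE, adjusted p = 0.00787), from 104 ± 1.7 to 85.8 ± 1.5 CPM (SD, n = 3), a 1.21-fold decrease. Under BGJ398 the FGF2 change was −0.02, with a 95% interval of −0.16 to 0.11. The difference between these responses, 0.25 ± 0.09, did not pass (adjusted p = 0.131), but did without BGJ398 replicate 1 (0.32, adjusted p = 0.0264) and without the 3 libraries that deviated together (0.31, adjusted p = 0.00398).

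The reads of Bmp4 were split between transcripts Bmp4-201, with 66.7% over the 12 libraries, and Bmp4-202, with 32.6%. The share of Bmp4-201 was 65.8% to 67.7% in DMSO and 58.5% to 71.7% in DMSO+FGF2. In BGJ398 it was 63.8% to 77.7% and in BGJ398+FGF2 61.7% to 67.4%. These ranges overlapped in all groups. The TPM of Bmp4 spread more widely than its CPM, from 75.1 to 113 within DMSO+FGF2. When counts were rebuilt from TPM and average transcript length, the FGF2 call on Bmp4 was lost (adjusted p = 0.436).

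Other ligand genes hardly appeared in the libraries. Of 12 ligand genes only Bmp8a passed the filter, with 145 reads over all libraries. Bmp2, an osteogenic ligand, had 7 reads, Bmp6 had 3 and Bmp7 had 1. Bmp5 had 78 and Gdf7 58, while Bmp10 and Gdf5 were at 0. In the deepest library, of 27716975 reads, 0 reads allow up to 3, or 0.108 CPM, for counting error only.

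Bmper (ENSMUSG00000031963) encodes a secreted chordin-like protein that binds BMP4 and can limit or promote its action. Its libraries had 13.04, 13.07 and 11.96 CPM in DMSO and 17.0, 19.6 and 17.9 CPM in DMSO+FGF2. They had 18.6, 21.4 and 19.5 CPM in BGJ398 and 20.9, 22.5 and 22.1 CPM in BGJ398+FGF2. All 9 treated libraries lay above the 3 DMSO libraries. FGF2 in DMSO raised Bmper by 0.52 ± 0.08 (SE, adjusted p = 0.000947), a 1.43-fold increase from 12.7 ± 0.63 to 18.2 ± 1.3 CPM (SD, n = 3).

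BGJ398 without FGF2 also raised Bmper, by 0.64 ± 0.08 (SE, adjusted p = 0.00508), a 1.56-fold increase. It was the 1 gene of the 9 called in that comparison, where 0.151% of all genes were called higher and 0.175% lower. That background is 41 genes, and it ran from 9 to 104 when 1 library was left out, with 153 by DESeq2 and 730 without the 3 libraries that deviated together. The call was lost in counts rebuilt from TPM (adjusted p = 0.0527). Against DMSO, the agents together gave 0.78 ± 0.08 (SE), while the separate changes add up to 1.17. The interaction, the FGF2 response under BGJ398 minus that in DMSO, was −0.38 ± 0.12 and did not pass (adjusted p = 0.0909). Under BGJ398 the FGF2 change was 0.14, with a 95% interval of −0.05 to 0.33.

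Grem1 encodes gremlin 1, a secreted antagonist that binds BMP ligands. It had 30 reads over the 12 libraries: 2, 5 and 3 in DMSO, 3, 1 and 0 in DMSO+FGF2, 2, 4 and 4 in BGJ398, and 3, 1 and 2 in BGJ398+FGF2. Its mean was 0.054 TPM. No difference between groups was detectable at this depth, and without the filter on low counts, over 19377 genes, edgeR gave it an adjusted p of 0.626 for FGF2 in DMSO. The library at 0, of 21134996 reads, allows up to 3 reads, or 0.142 CPM.

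The receptor genes showed no call in any comparison. Bmpr1a (ENSMUSG00000021796) encodes the type I receptor ALK3 and Bmpr2 (ENSMUSG00000067336) the type II receptor of BMP ligands. Bmpr1a had 135, 126 and 122 CPM in DMSO, 124, 104 and 120.1 in DMSO+FGF2, 114, 135 and 142 in BGJ398, and 139, 115 and 141 in BGJ398+FGF2. Bmpr2 had 129.7, 130.1 and 119 CPM in DMSO, 127, 106 and 124 in DMSO+FGF2, 119, 138 and 132 in BGJ398, and 135, 85.8 and 149.7 in BGJ398+FGF2. All 4 groups overlapped for both genes, and the lowest library of each in the FGF2 groups was replicate 2 and in BGJ398 replicate 1, the libraries that deviated together.

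The log2 fold change with FGF2 in DMSO was −0.14 for Bmpr1a, with a 95% interval of −0.37 to 0.08, and −0.09 for Bmpr2, with an interval of −0.43 to 0.25 (adjusted p = 0.389 and 0.758). Without BGJ398+FGF2 replicate 2, BGJ398 in FGF2-treated cells was called for both, at 0.27 for Bmpr1a (adjusted p = 0.0356) and 0.26 for Bmpr2 (adjusted p = 0.0325). Without the 3 libraries that deviated together these values were 0.20 (adjusted p = 0.0085) and 0.18 (adjusted p = 0.0229).

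Id3 (ENSMUSG00000007872) was the most abundant of the 10 genes by TPM and, of the 9 tested, had the largest change with FGF2 in DMSO. Its libraries had 189.8, 193 and 195 CPM in DMSO and 119, 118 and 109 CPM in DMSO+FGF2. They had 214, 167 and 175 CPM in BGJ398 and 162, 190.0 and 183 CPM in BGJ398+FGF2. The 3 DMSO+FGF2 libraries lay far below the rest, and the other groups overlapped. FGF2 lowered Id3 by −0.74 ± 0.09 on the log2 scale (SE, adjusted p = 7.00e-05), a 1.67-fold decrease from 193 ± 2.6 to 115 ± 5.6 CPM (SD, n = 3). Under BGJ398 the change was −0.06, with a 95% interval of −0.25 to 0.14, and the interaction was 0.68 ± 0.12 (SE, adjusted p = 0.00485).

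Id2 (ENSMUSG00000020644) had 31.3, 31.4 and 33.03 CPM in DMSO and 24.3, 23.8 and 19.7 CPM in DMSO+FGF2. It had 29.3, 30.9 and 29.6 CPM in BGJ398 and 30.4, 33.7 and 32.3 CPM in BGJ398+FGF2. As for Id3, the DMSO+FGF2 libraries were the lowest and did not overlap any other group. FGF2 lowered Id2 by −0.50 ± 0.08 (SE, adjusted p = 0.000914), a 1.41-fold decrease from 31.9 ± 0.95 to 22.6 ± 2.5 CPM. Under BGJ398 the change was 0.10, with a 95% interval of −0.08 to 0.28, and the interaction was 0.60 ± 0.11 (SE, adjusted p = 0.00772).

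Id1 (ENSMUSG00000042745) was the scarcest of the 3 Id genes. It had 6.07, 5.77 and 5.24 CPM in DMSO and 4.30, 3.67 and 3.996 CPM in DMSO+FGF2. It had 4.82, 4.23 and 4.90 CPM in BGJ398 and 4.93, 4.04 and 4.45 CPM in BGJ398+FGF2. Here the 3 DMSO libraries were the highest, and the other groups overlapped. FGF2 lowered Id1 by −0.51 ± 0.13 (SE, adjusted p = 0.0209), a 1.42-fold decrease. The call did not hold without DMSO replicate 1 (adjusted p = 0.0826), DMSO replicate 2 (0.0740), DMSO+FGF2 replicate 2 (0.0858) or DMSO+FGF2 replicate 3 (0.0590). BGJ398 alone gave −0.29 ± 0.13 (adjusted p = 0.599), and the interaction, 0.46 ± 0.19, did not pass (adjusted p = 0.227).

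The summed level of the 3 Id genes was 333 to 340 TPM in DMSO and 186 to 210 TPM in DMSO+FGF2. It was 317 to 336 TPM in BGJ398 and 305 to 336 TPM in BGJ398+FGF2. The DMSO+FGF2 libraries did not overlap the rest. Id3 made up 78.7% to 79.7% of the sum in DMSO and 75.7% to 77.3% in DMSO+FGF2, so most of the Id transcripts came from Id3 in both groups.

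Smad6 (ENSMUSG00000036867), whose product blocks BMP receptor signaling to SMAD1 and SMAD5, had 48.3, 48.1 and 50.8 CPM in DMSO and 37.6, 37.8 and 37.7 CPM in DMSO+FGF2. It had 53.6, 46.6 and 51.0 CPM in BGJ398 and 51.5, 49.1 and 58.1 CPM in BGJ398+FGF2. The DMSO+FGF2 libraries were the lowest and nearly equal. FGF2 lowered Smad6 by −0.38 ± 0.07 (SE, adjusted p = 0.00301), a 1.30-fold decrease. Under BGJ398 the change was 0.07, with a 95% interval of −0.10 to 0.24, and the interaction was 0.45 ± 0.10 (SE, adjusted p = 0.0225). That interaction was lost without DMSO replicate 2 (adjusted p = 0.0504), DMSO replicate 3 (0.0717), BGJ398 replicate 2 (0.0613), DMSO+FGF2 replicate 1 (0.0501) or DMSO+FGF2 replicate 3 (0.0527).

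Smad7 (ENSMUSG00000025880), whose product also inhibits TGF-beta receptors, was not called in any comparison. It had 31.6, 30.1 and 28.9 CPM in DMSO and 28.2, 27.6 and 28.1 CPM in DMSO+FGF2. It had 28.2, 25.2 and 25.5 CPM in BGJ398 and 24.9, 22.2 and 25.8 CPM in BGJ398+FGF2. The 3 BGJ398+FGF2 libraries lay below all 3 of DMSO and of DMSO+FGF2. FGF2 gave −0.11 in DMSO, with a 95% interval of −0.27 to 0.06, and −0.11 under BGJ398, with an interval of −0.28 to 0.06. BGJ398 gave −0.20 ± 0.07 both without FGF2 (adjusted p = 0.445) and with it (adjusted p = 0.0662). Without the 3 libraries that deviated together, BGJ398 without FGF2 was called at −0.25 (adjusted p = 0.0467). The TPM of Smad7 were ordered otherwise, with means of 11.6 in DMSO, 9.85 in DMSO+FGF2, 9.04 in BGJ398 and 11.6 in BGJ398+FGF2. Smad7 transcripts other than the main one took 0% of its reads in BGJ398, 4.23% to 6.10% in BGJ398+FGF2, 0% to 6.18% in DMSO and 0% to 4.95% in DMSO+FGF2, and the effective length assigned to the main one, 4474 to 5128 bases, exceeded its length of 4278. In counts rebuilt from TPM the sign of Smad7 turned for FGF2 under BGJ398 (0.38), for BGJ398 with FGF2 (0.18) and for the interaction (0.54), with no call. Smad6 likewise had an effective length of 3266 to 4018 bases for a length of 2971 in all 12 libraries.

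BGJ398 in FGF2-treated cells raised 5 of the 9 genes. The comparison shares its DMSO+FGF2 libraries with that of FGF2 in DMSO, so its values stand beside those above and are no separate support for them. Over all genes tested 10.8% were called higher and 11.4% lower. Id3 rose by 0.63 ± 0.09 (SE, adjusted p = 0.000182), Id2 by 0.50 ± 0.08 (adjusted p = 0.000660), Smad6 by 0.49 ± 0.07 (adjusted p = 0.000366) and Bmp4 by 0.40 ± 0.06 (adjusted p = 0.000421). The Bmp4 call was lost in counts rebuilt from TPM (adjusted p = 0.102). Bmper rose by 0.26 ± 0.08 (adjusted p = 0.0349), a call that was lost in 8 of 20 alternatives, with adjusted p from 0.0509 to 0.122 in those. Id1 had 0.17 ± 0.14 (adjusted p = 0.415).

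The interaction was positive for 3 of the 9 genes, Id2, Id3 and Smad6, where 1.99% of all genes were called positive and 2.25% negative. It subtracts the FGF2 change in DMSO, so it uses the same libraries as that comparison. The median interaction was 0.25 over the 9 genes and 0.00 over all genes. For FGF2 under BGJ398, 0% of all genes were called by edgeR, the smallest adjusted p was 0.194, 325 genes (2.59%) had an unadjusted p under 0.05, and DESeq2 called 5 genes. None of the 9 genes had an unadjusted p under 0.05 there in edgeR.

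**Figure D2:**
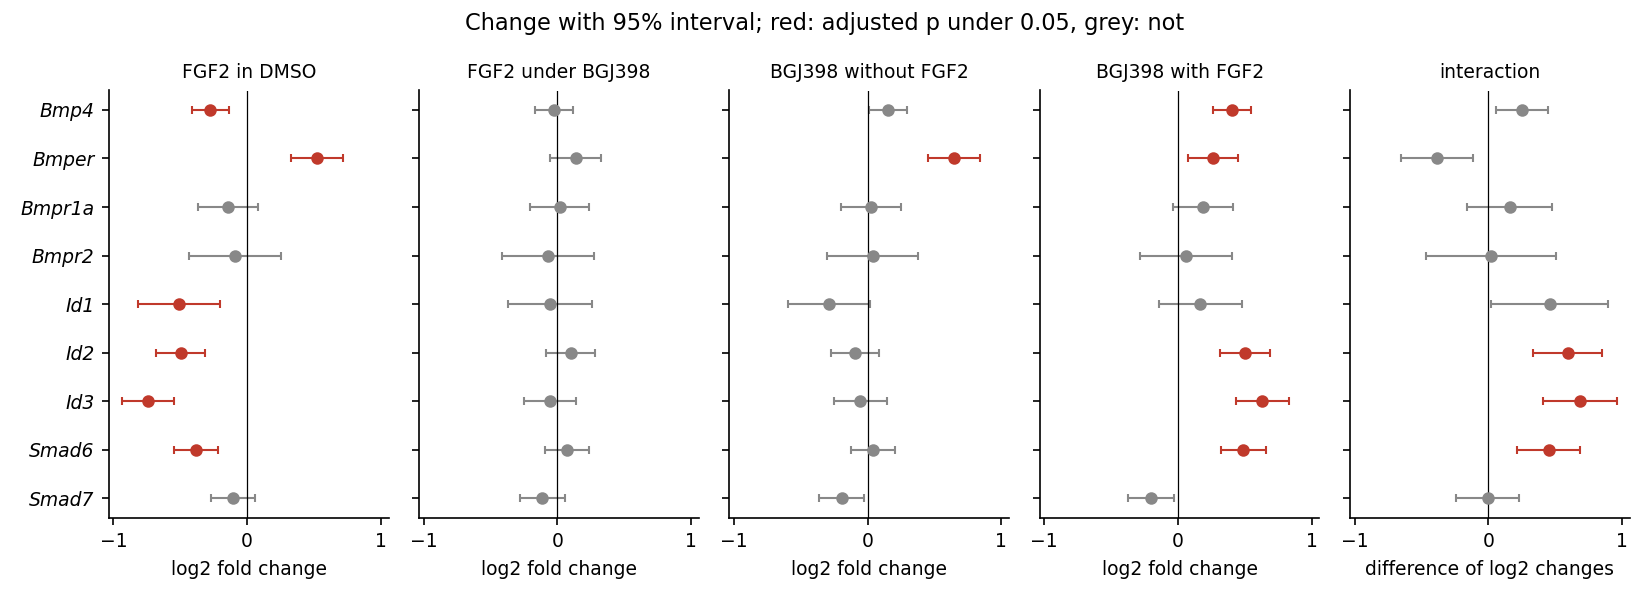
Log2 fold changes (horizontal axis) with their 95% intervals (bars) for the 9 tested genes, 1 panel per comparison and the interaction on the right, in red for an adjusted p under 0.05 and in grey for the rest. With FGF2 in DMSO the red points of Id3, Id2, Id1, Smad6 and Bmp4 lie below 0 and that of Bmper above it, while under BGJ398 all points are grey and lie between −0.11 and 0.14.

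Id3 and Bmp4 had the highest levels per length in all 4 groups. In DMSO the TPM means ran from Id3 at 266 through Bmp4 at 122, Id2 at 58.6, Bmpr1a at 49.6, Bmpr2 at 20.98, Smad6 at 20.5, Smad7 at 11.6 and Id1 at 11.2 to Bmper at 6.23 and Grem1 at 0.066. Bmpr2 and Smad6 overlapped, as did Smad7 and Id1, and the other neighbours did not. In DMSO+FGF2, Id3 at 151 and Bmp4 at 99.2 TPM still led. Bmpr1a at 42.4 and Id2 at 39.1 overlapped, and Bmper at 8.02 and Id1 at 7.43 did too. In BGJ398 and BGJ398+FGF2, Id3 averaged 263 and 257 TPM and Bmp4 150.1 and 135. The TPM of Bmper was 5.03% to 5.24% of that of Bmp4 in DMSO and 6.91% to 10.6% in DMSO+FGF2. It was 5.47% to 7.27% in BGJ398 and 6.79% to 9.85% in BGJ398+FGF2, above DMSO in every treated library.

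**Figure D3:**
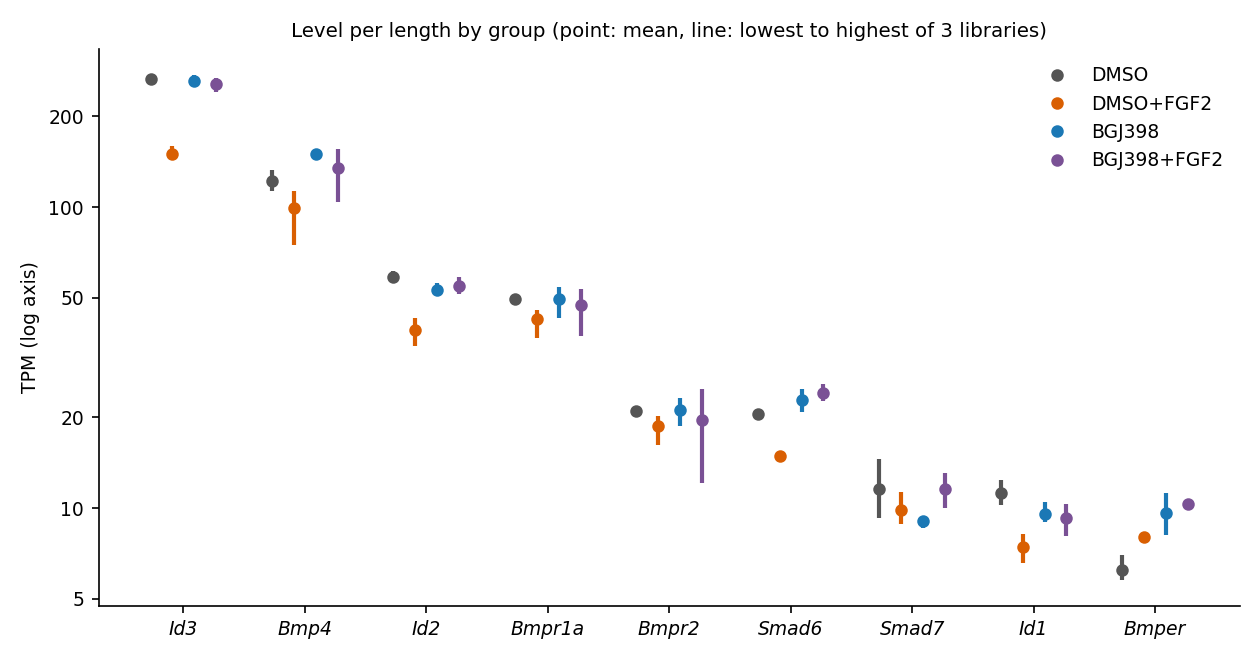
Mean TPM (vertical log axis) of the 9 tested genes in each group, by color, with lines from the lowest to the highest of 3 libraries. Id3 and Bmp4 lead in all 4 groups, and the DMSO+FGF2 points of Id3, Id2 and Smad6 lie below those of the other groups.

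The other genes of the pathway were taken from a list of 57, of which 34 passed the filter. With FGF2 in DMSO 11 of these fell and 1 rose, with a median log2 fold change of −0.09 against −0.00 over all genes, where 5.82% of all genes were called lower and 7.57% higher. In counts rebuilt from TPM 7 of the list fell and 0 rose, where 506 of all 12612 genes tested fell and 637 rose. Among antagonists, 2 of 8 fell. Fst, which encodes the activin and BMP binder follistatin, had 18.8, 20.04 and 15.4 CPM in DMSO and 7.19, 7.29 and 7.71 CPM in DMSO+FGF2. It had 25.2, 24.1 and 26.2 CPM in BGJ398 and 26.4, 27.1 and 25.7 CPM in BGJ398+FGF2. The DMSO+FGF2 libraries were the lowest and both inhibitor groups the highest. Fst fell with FGF2 by −1.29 ± 0.10 (SE, adjusted p = 2.12e-06), and it was the only gene of the 34 called for BGJ398 without FGF2 (0.48 ± 0.09, adjusted p = 0.0428). That call was lost in 14 of 20 alternatives (adjusted p up to 0.374), among them leaving out any 1 library except BGJ398+FGF2 replicate 2. In this comparison 3 genes of the list were called when all 3 libraries that deviated together were left out, where 730 of 12616 genes tested were called. Fstl1, a secreted follistatin-like protein, fell by −0.27 ± 0.05. The antagonist noggin, Nog, had 34 reads over the 12 libraries and was not tested.

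Among 8 tested receptors and coreceptors, 2 fell and 1 rose with FGF2 in DMSO, where 5.82% of all genes tested were called lower and 7.57% higher. Rgmb, a coreceptor of BMP ligands, rose by 0.37 ± 0.07 (SE, adjusted p = 0.00424). Neo1, which encodes the RGM receptor neogenin, fell by −0.43 ± 0.08 (adjusted p = 0.00244), and the type II receptor gene Acvr2a by −0.35 ± 0.10 (adjusted p = 0.0427). Among 8 intracellular genes 3 fell, and these were the receptor-activated SMADs of the BMP branch. Smad9 fell by −0.91 ± 0.13 (adjusted p = 0.000470), from 13.4 ± 0.17 to 7.11 ± 0.55 CPM (SD, n = 3). Smad1 fell by −0.23 ± 0.07 (adjusted p = 0.0404) and Smad5 by −0.22 ± 0.07 (adjusted p = 0.0417). The calls on Acvr2a, Smad1 and Smad5 were lost in 10, 11 and 9 of 20 alternatives, among them leaving out any 1 DMSO library, BGJ398 replicate 2 or DMSO+FGF2 replicate 2 or 3, with BGJ398 replicate 3 and DMSO+FGF2 replicate 1 for Acvr2a and Smad1 and BGJ398+FGF2 replicate 1 for Acvr2a and Smad5 (adjusted p up to 0.167 for Acvr2a, 0.117 for Smad1 and 0.155 for Smad5). In counts rebuilt from TPM the Rgmb call was lost too (adjusted p = 0.123).

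Response genes fell in 4 of 9 cases with FGF2 in DMSO and rose in 0, where 5.82% of all genes tested were called lower and 7.57% higher. Atoh8, a basic helix-loop-helix factor gene induced by BMP signaling, fell from 21.4 ± 0.44 to 8.59 ± 1.0 CPM (SD, n = 3), a change of −1.31 ± 0.09 (SE, adjusted p = 9.96e-07). Dlx5, a homeobox factor of bone formation, fell by −1.28 ± 0.09 (adjusted p = 8.17e-07), and Sp7, which encodes osterix, by −1.24 ± 0.10 (adjusted p = 4.06e-06). The remaining one, the osteoblast regulator Runx2, is named beyond the rule for the list, after its value was seen: it fell by −0.30 ± 0.09 (adjusted p = 0.0432). That call was lost in 9 of 20 alternatives, among them leaving out any 1 DMSO library, BGJ398 replicate 2 or 3, DMSO+FGF2 replicate 1 or 2, or BGJ398+FGF2 replicate 1 (adjusted p up to 0.347). Sp7 and Runx2 are also among the osteoblast markers, whose summed level was lower in DMSO+FGF2.

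**Figure D4:**
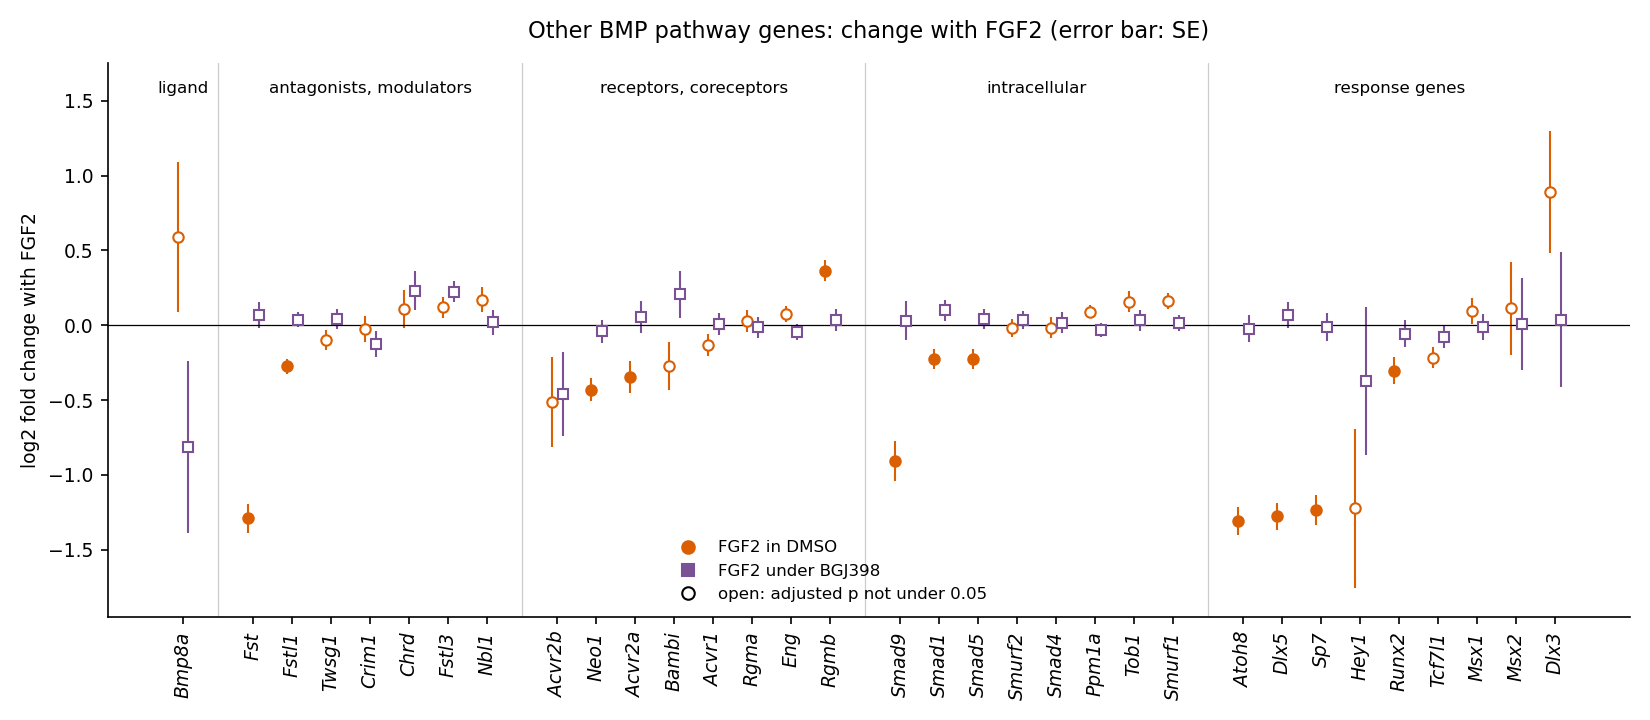
Log2 fold change with FGF2 and its SE for other tested genes of the pathway, by role, in DMSO (circles) and under BGJ398 (squares), filled where the adjusted p is under 0.05. In DMSO 12 circles are filled, the lowest of them Atoh8 at −1.31, and under BGJ398 none of the squares is filled.

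Under BGJ398, 0 of the 34 genes were called with FGF2, as were 0% of all genes, and 1 of the 34 had an unadjusted p under 0.05. The interaction was called positive for 6: Dlx5 at 1.35 ± 0.12 (SE), Fst at 1.36 ± 0.13, Atoh8 at 1.28 ± 0.13, Sp7 at 1.22 ± 0.14, Smad9 at 0.94 ± 0.19 and Fstl1 at 0.31 ± 0.07, with adjusted p of 0.0230 or less by edgeR, where 1.99% of all genes were called positive and 2.25% negative. The count was 10 without replicate 2 of BGJ398+FGF2, and 10 when all 3 libraries that deviated together were left out. Over all genes tested, 956 of 12676 and 1038 of 12616 were called in these fits. The Fstl1 interaction was lost in 6 of 19 alternatives (adjusted p up to 0.0759): without DMSO replicate 2 or 3, BGJ398 replicate 2, DMSO+FGF2 replicate 1 or 2, or BGJ398+FGF2 replicate 1. BGJ398 in FGF2-treated cells raised 12 of the 34 and lowered 2, against 10.8% of all genes called higher and 11.4% lower. It raised 8 and lowered 1 in counts rebuilt from TPM, where 897 of all 12612 genes tested rose and 915 fell. Fst rose by 1.84 ± 0.10 and Sp7 by 1.51 ± 0.10. Bambi, a decoy receptor, rose by 0.56 ± 0.16 (adjusted p = 0.0214), a call lost without DMSO+FGF2 replicate 2 (adjusted p = 0.0588) or 3 (0.0673), without replicate 2 of BGJ398+FGF2 (0.0628), in counts rebuilt from TPM (0.0648), in a fit of these 2 groups alone (0.0584) and without all 3 libraries that deviated together (0.107). Those that fell were Rgmb at −0.49 ± 0.07 and the ubiquitin ligase gene Smurf1 at −0.29 ± 0.06 (adjusted p = 0.000406 and 0.00242), and the Rgmb call was lost in counts rebuilt from TPM (adjusted p = 0.0994).

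The genes whose pattern over the 12 libraries was nearest to that of a BMP gene were sought for Id3, Id2 and Bmper among 10356 protein-coding genes that averaged 5 CPM or more. The measure was the root mean square difference of log2 CPM, each gene centred on its own mean. For Id3 the nearest were Col4a1 at 0.0896 and Col4a2 at 0.0939, where Id3 itself varied with an SD of 0.314. For Id2 they were Pycr1 at 0.0637 and Cenpl at 0.0717, with an SD of 0.223 for Id2. For Bmper they were Bmf at 0.150 and Dhrs3 at 0.153, a larger distance, with an SD of 0.304 for Bmper. All points share the 12 libraries and their depth, and the measure was not tested.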

How the data were processed

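Polyadenylated RNA of 12 libraries was sequenced. Transcripts were quantified with Salmon against build GRCm39, per the submitters' processing notes; its version, strand and bias settings: not given in the sources used here. Genes that overlap on either strand may therefore share reads. The authors deposited, per the file headers, expected counts, TPM (length-corrected and scaled within a library) and effective lengths in bases for 116178 transcripts. GENCODE M21 names (GRCm38), used by identifier only, matched 114656 of them. Reads of the 1522 others, 0.499% to 0.641% of a library, were left out.

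Expected counts were summed per gene, rounded and tested with edgeR 4.0.16 (R 4.3.3): filterByExpr by group, TMM, 1 quasi-likelihood model of 4 group means over 12 libraries, 8 residual degrees of freedom, adjustment over 12542 genes at 0.05, 2-sided. The SE is the absolute log2 fold change over the square root of F. Within-group pairs of libraries differed by 3.21 to 24.9 times the counting expectation, and none was treated as a duplicate. The fit was tested on simulated counts. Alternatives were DESeq2 1.42.0, limma 3.58.1 (voom), DESeq2 size factors, no filter, length-scaled TPM, only the groups compared, a replicate block and leaving out libraries.

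All 10 genes are named whatever their test result, though not every comparison is printed for each of them. Of the other pathway genes, up to 3 called per role and comparison with the smallest p could be named. For the 3 genes of the 10 with the smallest p for FGF2 in DMSO, 2 near genes each are named. Members and lists were chosen with earlier results of these data known. The values of 1 gene of the pathway list are not reported here, and it is not drawn; it is included in the counts.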

Additional observations from a re-analysis of the deposited data

Results flagged for a closer look

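For 3 of the 9 tested BMP genes the response to FGF2 differed between BGJ398 and DMSO by a test of the difference itself (edgeR's quasi-likelihood test, adjusted over all genes). The difference was 0.60 for Id2 (adjusted p = 0.00772), 0.68 for Id3 (adjusted p = 0.00485) and 0.45 for Smad6 (adjusted p = 0.0225), each on the log2 scale. In all 3 the FGF2 change was negative in DMSO and did not pass the test under BGJ398.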

How the results depend on the processing

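Of 891 alternative values for 45 results on the 9 tested BMP genes, 825 kept direction and side of the threshold, 20 lost the call, 7 gained one and 39 changed sign. Of 594 values for 30 results on other named pathway genes, added after seeing the data, 525 kept both and 69 lost the call. DESeq2 size factors moved the median of all genes by at most 0.0070.

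Each sign change was of a value not called in either fit. For FGF2 under BGJ398, length-scaled TPM gave −0.047 for Bmpr1a and 0.38 for Smad7. Without the 3 libraries that deviated together it was 0.015 for Bmp4, 0.071 for Bmpr2, 0.037 for Id1 and 0.0097 for Id3, and leaving out 1 library gave −0.073 to 0.10 for Bmpr1a, −0.075 to 0.048 for Bmp4, −0.13 to 0.061 for Id3, −0.23 to 0.13 for Bmpr2, −0.13 to 0.014 for Id1 and −0.0032 to 0.12 for Smad6. For BGJ398 without FGF2, leaving out 1 gave −0.040 to 0.12 for Bmpr1a, −0.013 to 0.10 for Bmpr2, −0.0080 to 0.091 for Smad6 and −0.17 to 0.016 for Id3, and Smad6 was at −0.0081 without the 3 libraries. For BGJ398 with FGF2, Smad7 was at 0.18 from length-scaled TPM, and Bmpr2 ran from −0.10 to 0.26 leaving out 1. In the interaction, Bmpr2 was at −0.0076 by voom, −0.00035 from length-scaled TPM and −0.14 to 0.22 leaving out 1, and Smad7 at 0.54 from length-scaled TPM, 0.095 without the 3 libraries and −0.050 to 0.053 leaving out 1.

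Calls among the 9 BMP genes went from 1 to 0 for BGJ398 without FGF2 and from 5 to 3 for BGJ398 with FGF2 from length-scaled TPM. Without the 3 libraries that deviated together, chosen after seeing the data, the first became 2 and the second 7. In that fit the interaction count went from 3 to 4, and that of FGF2 in DMSO stayed at 6. Leaving out 1 library gave 5 to 6 for FGF2 in DMSO, 4 to 6 for BGJ398 with FGF2 and 2 to 4 for the interaction. The lowest interaction count, 2, came without DMSO replicate 2 or 3, BGJ398 replicate 2, or DMSO+FGF2 replicate 1 or 3.

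Over all genes, FGF2 in DMSO called 1680, and 2611 without the 3 libraries. Leaving out 1 library gave 1018 to 2256, with 1052, 1018 and 1086 without DMSO replicate 2, DMSO replicate 3 and DMSO+FGF2 replicate 2. FGF2 under BGJ398 called 0, against 5 by DESeq2, 6 without the filter, 1 in the 2 groups alone, 4 without the 3 libraries and 0 to 1 leaving out 1, with 1 without BGJ398 replicate 2 or 3 or DMSO+FGF2 replicate 2. BGJ398 without FGF2 called 41 (19 higher), against 153 by DESeq2, 83 without the filter, 12 (8 higher) from length-scaled TPM, 64 in the 2 groups alone and 730 (261 higher) without the 3 libraries. It called 9 to 104 leaving out 1: 14, 9 and 9 without DMSO replicates 1, 2 and 3, 27, 14 and 11 without BGJ398 replicates 1, 2 and 3, 26 without DMSO+FGF2 replicate 1 or 3, and 104 without BGJ398+FGF2 replicate 2. BGJ398 with FGF2 called 2782, against 1812 from length-scaled TPM, 1794 in the 2 groups alone and 1948 to 3345 leaving out 1. The interaction called 532, against 825 by DESeq2, 347 from length-scaled TPM, 1038 without the 3 libraries and 328 to 956 leaving out 1, with 328, 337 and 956 without DMSO replicate 2, DMSO replicate 3 and BGJ398+FGF2 replicate 2. The cause was not tested.

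With a replicate block BGJ398 without FGF2 called 21 genes instead of 41, and no call among the 9 BMP genes changed, while those on Smad1 and Smad5 for FGF2 in DMSO and on Fst for BGJ398 without FGF2 were lost. Same-numbered libraries did not deviate together (r from −0.41 to 0.34, over 0.1 in 7 of 18 pairs, and 4 of 12 libraries were nearest to their own number), so the numbers do not show pairing. Depth limits Grem1 and most ligand genes, which had too few reads to test.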
